A study of Homo sapiens with 16 samples.

Results

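The 200 probes described here gave the brightest signal shared by every precipitate of an RNA immunoprecipitation from HepG2, a cell line established from a human hepatocarcinoma. They were chosen from 47231 probes by 2 criteria: a detection p-value under 0.05 on all 16 arrays, which 5791 probes met, and the highest log2 intensity averaged over the 16 arrays. They make up 0.423% of the table and 3.45% of the probes detected on every array. Their intensities on all 16 arrays chose them, so their high level and large share of signal are a description with no test, and what follows concerns how those values varied between arrays and groups. The rule required detection on every array, so the name "shared by all precipitates" holds by that choice. All 200 had a detection p-value of 0 on all 16 arrays.

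In RNA immunoprecipitation an antibody on beads pulls a protein out of a lysate together with the RNA bound to it. RNA also sticks to beads, tube and antibody without the protein, and a precipitate made with non-immune IgG measures that carry-over. Abundant messages are the ones most easily carried over, so an RNA that is bright in a specific precipitate is read against its level in the IgG precipitate. NQO1 is a cytosolic enzyme that reduces quinones and has been studied as an RNA-binding protein. β-lapachone is a quinone that NQO1 reduces in a cycle that consumes NAD(P)H.

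The design addresses which RNAs come down with NQO1, and whether β-lapachone alters this. HepG2 cells were left in regular medium (control) or exposed to β-lapachone at 10 µM for 30 min. Cytoplasmic lysate was precipitated with a mouse anti-NQO1 antibody (A180) or with mouse IgG on protein-A Sepharose, and the recovered RNA was amplified from its poly(A) tail, labelled with biotin and read on a single-colour Illumina array. The 4 groups were IgG after control medium, NQO1 after control medium, IgG after β-lapachone and NQO1 after β-lapachone, with 4 arrays each, named below by group and replicate number. Nothing in the labels stated that the replicates were separate cultures, so p-values reflect only how far these arrays differ, a spread that may be technical. All groups came from 1 cell line. The table names probes by the manufacturer's ID alone, and the gene tables used here held 0 of these IDs. The genes behind the 200 probes were therefore not analysed here, nor were markers of the hepatocyte-derived line.

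The arrays differed widely in how many probes they detected, and 2 of them stood apart. NQO1 control replicate 4 detected 9101 probes and IgG β-lapachone replicate 4 detected 9223. Another 4 arrays, 1 in each group, detected 13059 to 14638: IgG control replicate 2, IgG β-lapachone replicate 2, NQO1 control replicate 3 and NQO1 β-lapachone replicate 3. The other 10 detected 16594 to 19097. This division into 3 sets was made after the values were seen and crosses the study's groups. Results that rest on the 2 arrays with the fewest detected probes are given with and without them. In bulk precipitates, less RNA recovered and less RNA per cell cannot be told apart.

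The brightest member had a geometric mean of 21215 intensity units, the linear fluorescence scale of the deposited table, over the 16 arrays, and the median member 12226. At the edge of the list the differences were small. The 199th and 200th probes had geometric means of 8341 and 8297, and the next 2 probes outside it had 8286 and 8271. No probe that went undetected on some array had a higher mean than the last member.

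The members carried between 12.3% and 18.5% of all intensity on an array. IgG control arrays gave 14.3%, 18.4%, 12.6% and 13.7% for replicates 1 to 4, and IgG β-lapachone arrays gave 12.7%, 18.05%, 14.9% and 18.1%. NQO1 control arrays gave 12.7%, 12.7%, 16.9% and 14.9%, and NQO1 β-lapachone arrays gave 12.5%, 12.3%, 18.5% and 12.5%. The groups overlapped throughout. The replicate with the intermediate count of detected probes was the highest of its group in 3 groups, and in IgG β-lapachone it was just below replicate 4. On the 4 arrays that detected 13059 to 14638 probes the share was 16.9% to 18.5%, on the 10 that detected more it was 12.3% to 14.9%, and on the 2 that detected fewest it was 14.9% and 18.1%. The share thus differed between the 3 sets without following the number of detected probes throughout, since NQO1 control replicate 4, with the fewest, was below all 4 intermediate arrays. The part of detection in the share was not tested.

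A probe without signal still has an intensity, so part of the total on each array is background. When each array's median intensity was subtracted first, the members' share was between 15.5% and 40.0%. It was then 15.5% to 19.8% on the 10 arrays with most detected probes and 23.2% to 27.1% on the 4 intermediate ones. The 2 arrays with fewest reached 35.3% (IgG β-lapachone replicate 4) and 40.0% (NQO1 control replicate 4). On this scale the order of the 3 sets of arrays followed the number of detected probes.

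Between groups, the share on single arrays overlapped in every comparison, and the adjusted tests cannot decide whether it differed. It averaged 14.8% ± 2.50 (SD, n = 4) for IgG control, 14.3% ± 2.03 for NQO1 control, 15.95% ± 2.60 for IgG β-lapachone and 13.9% ± 3.01 for NQO1 β-lapachone. The largest of the 4 differences was between antibodies after β-lapachone, where the NQO1 share was lower by 2.01 percentage points (two-sided exact permutation test, p = 0.343, adjusted p = 0.960). The other differences were -0.452 points for NQO1 against IgG in control medium, -0.361 for the drug in NQO1 precipitates and 1.20 for the drug in IgG precipitates. Each of these had an adjusted p of 0.960 by the same exact test, with Benjamini-Hochberg adjustment over 12 tests of 3 measures. The smallest p that 4 arrays against 4 allow is 0.0286, so after adjustment over 12 tests hardly any could pass. No absence of a difference is therefore read from any of the 12. The direction in control medium was not stable: it became 3.91 points higher for NQO1 with the array median subtracted.

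A share read on arrays that had no part in choosing the probes was of the same size. The 200 brightest probes chosen on the 8 IgG arrays held 12.1% to 18.6% of the intensity on the 8 NQO1 arrays (median 12.4%). Those chosen on the 8 NQO1 arrays held 12.95% to 17.9% on the 8 IgG arrays (median 14.9%). These 2 lists shared 180 of their 200 probes.

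The list changed little when 1 array was left out, while the order within it was not stable. Leaving out any 1 array and choosing again kept 183 to 199 of the 200 probes, and the lowest overlap came without IgG β-lapachone replicate 4. The 200 brightest by the mean of the 14 arrays without the 2 low ones shared 170 with the members, and all 30 that came in were detected on all 16 arrays. Choosing by normalized values shared 191, and a detection threshold of 0.01 gave all 200 again. Lists chosen within 1 group shared 167 (IgG β-lapachone) to 188 (NQO1 control) with the members, which the same arrays helped to choose. Without replicate 4, the low array, the NQO1 control list shared 151 and the IgG β-lapachone list 179. Lists of different groups shared from 136 (IgG control and IgG β-lapachone) to 172 probes with each other.

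Only 38 members were among the 200 brightest probes on all 16 arrays, and no other probe in the table was. Of these 38, 31 came from the first 50 members and 0 from the last 50. In all, 96 members were among the 200 brightest on at least 12 arrays, 76 on 8 arrays or fewer and 2 on none. Even so, 165 members were never below rank 1000 of 47231 on any array, and 197 were not when the 2 arrays with fewest detected probes were left out. The lowest rank of any member was 3069.5, on IgG β-lapachone replicate 4. Membership therefore spans a core that stayed at the top of every array and probes near its edge that moved in and out.

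The number of members among an array's own 200 brightest differed more between replicates than between groups. IgG control arrays held 137, 174, 109 and 125 for replicates 1 to 4, and IgG β-lapachone arrays held 113, 169, 139 and 132. NQO1 control arrays held 101, 113, 171 and 124, and NQO1 β-lapachone arrays held 114, 116, 169 and 109. The highest array of every group was the one with an intermediate number of detected probes (169 to 174). Group means were 136 ± 27.7 (SD, n = 4), 138 ± 23.3, 127 ± 30.6 and 127.0 ± 28.2 in that order, with adjusted p between 0.960 and 1.0 over the 4 comparisons by the two-sided exact permutation test.

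The intensity of a single member ranged over a median of 5.18-fold between its lowest and highest array, from 1.62-fold for the steadiest to 158-fold for the most variable. Without the 2 low arrays the median range was 2.22-fold. The 5791 probes detected on every array ranged over a median of 7.50-fold, and 2.78-fold without those arrays. Choosing members by their mean over the same arrays selects against low values, so nothing is read from that difference. Members with under a 2-fold range numbered 5 over 16 arrays and 80 over 14. The lowest array was NQO1 control replicate 4 for 132 members and IgG β-lapachone replicate 4 for 42, and only 26 were lowest elsewhere. The highest was NQO1 β-lapachone replicate 3 for 97 and NQO1 β-lapachone replicate 2 for 92.

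The rank order of the 200 members was alike on arrays that detected a similar number of probes. Spearman's correlation over the members had a median of 0.876 across the 45 pairs among the 10 arrays with most detected probes (0.645 to 0.962). The 2 arrays with fewest, which differ in both antibody and medium, correlated at 0.936 with each other and shared 173 of their 200 brightest probes. Between one of those 2 and one of the 10, the correlation was -0.114 to 0.038 (20 pairs, median -0.04), and 57 to 85 of the 200 brightest were shared. Over all 5791 probes the same 20 pairs had a median of 0.451. These values describe one list of probes read on the same arrays and are not independent replicates.

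Arrays of one group were not closer to each other than arrays of different groups in these medians. Pairs within a group had a median of 0.437, pairs of the same antibody 0.640, pairs of the same medium 0.602, and pairs that differed in both 0.687. Without the 2 low arrays the medians were 0.566, 0.768, 0.807 and 0.777. No group held both low arrays or more than 1 intermediate array, so pairs within a group never joined those. The medians above therefore mix group with the number of detected probes, and whether they differ was not tested. Among the 10 arrays with most detected probes, pairs within a group had correlations of 0.742 to 0.949. All pairs among those 10 had 0.645 to 0.962.

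On the 2 arrays with fewest detected probes the members lost signal unevenly. Each array was set against the mean log2 intensity of the other 3 arrays of its own group, so the 2 references share no array. On NQO1 control replicate 4, 146 members (73.0%) were over 2-fold lower, 82 over 4-fold and 19 over 16-fold, with a median difference of -1.72 on the log2 scale. On IgG β-lapachone replicate 4, 78 members (39.0%) were over 2-fold lower, 55 over 4-fold and 31 over 16-fold, while 122 stayed within 2-fold, with a median of -0.71. Of all 5791 probes detected throughout, 76.1% and 58.4% were over 2-fold lower, with medians of -2.04 and -1.32. These 2 arrays were among the 16 that chose the members, which selects against probes with the largest loss there, so nothing is read from that difference. On the other 14 arrays no more than 14 members were over 2-fold below their group.

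Members that were low on one array tended to be low on the other. All 78 that were over 2-fold lower on IgG β-lapachone replicate 4 were also over 2-fold lower on NQO1 control replicate 4, where they were 78 of 146, and 44 of the 50 most reduced on each were shared. Over the 200 members the 2 sets of differences had a Pearson correlation of 0.885 and a Spearman correlation of 0.940, a description across probes that share a pair of arrays. Over all 5791 probes these were 0.932 and 0.947. An uneven loss was thus present among all probes detected throughout.

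The 31 members over 16-fold lower on IgG β-lapachone replicate 4 show the most extreme loss, and they were chosen by their values on that array. Their intensities there were 190.3 to 735.8 (median 401). On NQO1 control replicate 4, which had no part in choosing them, all 31 were over 4-fold lower than their group, with a median intensity of 1115. On the 10 arrays with most detected probes their median intensity was 13023 to 24172. Their median rank was 40.0 to 197 on the 14 other arrays, 484 on NQO1 control replicate 4 and 1833.5 on IgG β-lapachone replicate 4. Of the 4 intermediate arrays, 9 of the 31 were over 2-fold lower on IgG control replicate 2, 7 on NQO1 β-lapachone replicate 3, 1 on IgG β-lapachone replicate 2 and 0 on NQO1 control replicate 3. The last 2 arrays are compared with groups that include the low arrays.

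At the other end were 77 members whose log2 difference on IgG β-lapachone replicate 4 was no lower than -0.5. Their median intensity was 13094 there and 7954 on NQO1 control replicate 4, against 10523 to 20275 on the 10 arrays with most detected probes. On NQO1 control replicate 4, 24 of them were over 2-fold lower and 0 over 4-fold. Their median rank was 40.0 on IgG β-lapachone replicate 4, where their values chose them, and 42.0 on NQO1 control replicate 4, where they did not. On the 4 intermediate arrays it was 67.0 to 97.0, and on the 10 with most detected probes 134 to 248.

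Single members show how far apart the 2 ends lay. The member in position 182 of the 200 read 10867 to 20183 on the 14 other arrays but 198.9 on IgG β-lapachone replicate 4 and 707.6 on NQO1 control replicate 4. The member in position 162 read 4420.0 to 19870 on those 14 and 15318 and 11940 on the 2 low arrays. The member in position 12 read 20359 and 19999.9 and was the third brightest and the brightest probe of those arrays. Brightness and loss were weakly related across the 200 members. The log2 difference from the own group, negative for a loss, was set against the level on the 7 remaining arrays of the other antibody. Pearson correlations were -0.274 (IgG β-lapachone replicate 4) and -0.0747 (NQO1 control replicate 4), a description with no test. The negative sign means that brighter members tended to a slightly larger loss.

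By position in the list, the first 50 members had the smallest median loss on both low arrays, opposite in direction to the correlations above. On IgG β-lapachone replicate 4 the median difference was -0.34 for the first 50 members and -0.77, -0.99 and -0.99 for the following bands of 50. On NQO1 control replicate 4 it was -1.15, -1.73, -1.80 and -2.38. Because low values on these arrays also lower a probe's mean over the 16 arrays, the choice of members contributes to this order.

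Quantile normalization, which gives all arrays one distribution of values, moved the members' median difference on both low arrays to 0.12. It left 54 members over 2-fold lower on IgG β-lapachone replicate 4 (21.2% of all 5791 probes) and 34 on NQO1 control replicate 4 (15.6%). The 2 sets of differences still had a Spearman correlation of 0.935 over the members. The general loss of intensity therefore depended on the scale, while its unevenness between members was present on both.

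The members' level on single arrays also overlapped between the groups in every comparison. The adjusted permutation tests could hardly pass with so few arrays, so they cannot decide whether the level differed. The median log2 intensity of the 200 averaged 13.72 ± 0.25 (SD, n = 4) in IgG control, 13.35 ± 0.96 in NQO1 control, 13.62 ± 0.49 in IgG β-lapachone and 14.13 ± 0.25 in NQO1 β-lapachone. The 2 largest differences were 0.78 for β-lapachone in the NQO1 precipitate (p = 0.114, adjusted p = 0.686) and 0.51 for NQO1 against IgG after β-lapachone (p = 0.0857, adjusted p = 0.686), by two-sided exact permutation tests. Without the 2 low arrays they were 0.31 and 0.27. NQO1 against IgG in control medium gave -0.36 and β-lapachone in the IgG precipitate -0.09, and these turned to 0.11 and 0.15 without those arrays.

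Each probe was then tested between groups after background correction and quantile normalization, with limma fitted to the 19914 probes detected on at least 4 arrays. No member passed an adjusted p of 0.05 in any of the 6 comparisons, where 0% of all tested probes passed (0 of 19914 in each). At an unadjusted p under 0.05 there were also 0 members in each, against 0.296% of all probes for NQO1 over IgG in control medium, 0.733% once the drug was given and 0.748% over the average of the media. For β-lapachone over control medium the shares of all probes were 0.688% with anti-NQO1 and 1.45% with IgG, and for the drug's effect on the ratio of NQO1 to IgG 0.276%. With no difference at all, a share of 0.05 would be expected on average, and every comparison lay below it. The fit was thus conservative on these arrays, and no absence of a difference is read from the 0 members. The members had a smaller spread than most probes, with a median residual SD of 0.38 on the log2 scale against 0.86. The half-width of the 95% confidence interval of a difference had a median of 0.69 for members (1.61-fold) and 1.26 for all tested probes. Members were chosen by high means and detection on these same arrays, which selects against a wide spread. Nothing is therefore read from either contrast.

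An alternative that weights arrays by how well they fit changed the counts. With array weights, limma called 23 members for NQO1 against IgG in control medium (23.8% of all tested probes), 33 after β-lapachone (44.7%) and 58 averaged over media (53.7%). It called 26 members for β-lapachone in the NQO1 precipitate (14.1%). For β-lapachone in the IgG precipitate it called 0 members (3.86%), and for the difference of ratios 0 (0.357%). The weights were estimated from the same 16 arrays, and their estimation stopped with a warning that it had not converged.

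After quantile normalization the fitted differences of most members were small, and their size and direction as a group depended on the scaling. For NQO1 against IgG in control medium they ran from -0.51 to 0.44 on the log2 scale, with a median of -0.06, and no member reached a 2-fold difference (0.919% of all probes were at least 2-fold higher and 2.74% lower). After β-lapachone they ran from -0.63 to 1.23, with 7 members at least 2-fold higher in NQO1 (14.1% of all probes) and 0 lower (7.87%). For β-lapachone in the NQO1 precipitate they ran from -0.47 to 0.63, with 0 members at 2-fold either way (5.85% higher and 1.84% lower). In the IgG precipitate they ran from -1.28 to 0.87, with 10 members at least 2-fold lower (10.3%) and 0 higher (5.3%). Without IgG β-lapachone replicate 4, both the 7 and the 10 became 0, so the 2-fold differences rested on that array. With each array centred on its median in place of quantile normalization, the members' median difference for NQO1 against IgG after the drug changed from -0.11 to 0.12, where that of all probes moved from 0.03 to 0.50. For the drug in NQO1 it changed from 0.00 to 0.54, and that of all probes from 0.09 to 0.58.

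The counts of 2-fold differences changed with the scaling, for the members and for all probes. For NQO1 against IgG after the drug, 35 members were at least 2-fold higher with median centring (28.7% of all probes) and 46 on the deposited values (23.6%). For the drug in NQO1, 21 were higher with median centring (25% of all probes) and 49 on the deposited values (18.4%). For the drug in IgG, 23 were lower with median centring (15.7%) and 26 on the deposited values (6.74%). In control medium 2 members were lower in NQO1 than in IgG with median centring (7.75%) and 0 on the deposited values (1.01%).

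The ratio of NQO1 to IgG was also compared between the media, and after quantile normalization its 2-fold differences rested on both low arrays. It was at least 2-fold higher for 20 members (20.8% of all probes), lower for 0 (13.1%), and for 61 with median centring (43.8%) and 79 on the deposited values (35.6%). After quantile normalization 0 members were 2-fold higher without IgG β-lapachone replicate 4. Leaving out NQO1 control replicate 4 instead left 2. Averaged over media, 0 members differed 2-fold between antibodies (2.84% of all probes were higher and 0.306% lower).

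Few members had normalized values that did not overlap between groups. There were 2 for NQO1 against IgG in control medium (0.648% of all tested probes) and 3 after β-lapachone (0.864%). β-lapachone in the NQO1 precipitate gave 7, of which 6 were lower (1.34% of all probes in either direction, 0.708% lower). In the IgG precipitate there were 6, of which 5 were lower (1.09% and 0.698%), and 14 without the 2 low arrays (1.9%). The counts and the direction depended on the scaling. On the deposited intensities 13 members did not overlap for β-lapachone in the NQO1 precipitate (4.18% of all probes) and 25 for NQO1 against IgG after the drug (10.3%), all of them higher, and 0 in control medium (0.0352%). With median centring 0 did so in control medium (0.588%).

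The 4 members named here had the smallest p in each direction over the 4 comparisons of 2 groups, and none passed the threshold. ILMN_1656487, in position 78, was higher after β-lapachone in both precipitates. Its normalized log2 values were 13.38, 13.59, 13.61 and 13.41 in IgG control and 13.91, 13.93, 13.83 and 13.98 in IgG β-lapachone for replicates 1 to 4. In NQO1 control they were 13.75, 13.70, 13.62 and 13.89, and in NQO1 β-lapachone 14.12, 14.08, 14.01 and 14.04. The 2 media did not overlap in either precipitate. The difference was 0.42 with a standard error of 0.22 in IgG (limma adjusted p = 0.892) and 0.32 ± 0.22 (SE) in NQO1 (limma adjusted p = 1). These standard errors also draw on the spread of all tested probes. This probe's own SD was 0.12 in IgG control, 0.06 in IgG β-lapachone, 0.12 in NQO1 control and 0.04 in NQO1 β-lapachone. On the deposited scale the 2 media overlapped in the IgG precipitate, where IgG β-lapachone replicate 4 read 9195.6 against 9352.0 to 12031 in IgG control.

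ILMN_1745607, in position 148, varied more between replicates. Its normalized log2 values were 13.06, 13.51, 12.44 and 12.31 in IgG control and 13.47, 14.02, 13.09 and 14.25 in IgG β-lapachone. They were 12.14, 12.73, 13.50 and 14.08 in NQO1 control and 13.48, 13.47, 13.96 and 13.15 in NQO1 β-lapachone. The media overlapped in both precipitates. The difference in IgG was 0.87 with a standard error of 0.44 (limma adjusted p = 0.892).

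ILMN_3237839, in position 169, was lower after β-lapachone in the NQO1 precipitate. Its normalized log2 values there were 13.54, 13.35, 13.17 and 13.66 in control medium and 12.91, 12.83, 13.12 and 12.99 after β-lapachone, with no overlap. In the IgG precipitate they were 13.34, 13.54, 13.34 and 13.36 against 13.01, 13.19, 13.08 and 13.60, which overlap through replicate 4. The difference in NQO1 was -0.47 with a standard error of 0.24 (limma adjusted p = 1). On the deposited scale the media overlapped in NQO1, with 3107.5 to 12303 in control medium and 9050.8 to 13021 after β-lapachone.

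ILMN_2415722, in position 163, was low on one array. Its normalized log2 values were 13.91, 13.70, 13.46 and 13.90 in IgG control and 13.39, 13.44, 13.54 and 11.08 in IgG β-lapachone. The last of these corresponds to an intensity of 475.5, where replicates 1 to 3 read 9585.7 to 13075. In NQO1 it read 13.25, 13.62, 14.02 and 13.10 after control medium and 13.40, 13.43, 13.53 and 13.39 after β-lapachone, which overlap. The difference for β-lapachone in IgG was -0.88 with a standard error of 0.46 (limma adjusted p = 0.892), and the lowest value came from the array with 9223 detected probes.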

How the data were processed

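The authors deposited one table of linear intensity per probe and array for 47231 probes, with a detection p-value beside each intensity, per the file headers. The submitters' processing notes name GenomeStudio 2011.1 without settings. The intensities differ in every summary between arrays and are taken as not normalized. Groups come from the sample titles. The 200 members and the lists were chosen with earlier results of these data known.

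Shares, ranks and losses were computed from the deposited intensities. A rank of 1 is the brightest of an array, and tied probes share a mean rank. For the tests, intensities were corrected by normexp from the detection p-values with an offset of 16, quantile normalized and log2 transformed (neqc, limma 3.58.1, R 4.3.3). One model with 4 group means was fitted with lmFit and eBayes to all 16 arrays and to the 19914 probes detected (p under 0.05) on at least 4 arrays. P-values were Benjamini-Hochberg adjusted over those probes, with a threshold of 0.05. Array measures were compared by two-sided exact permutation tests. The fit was tested on simulated data. Named probes are the 2 members with the smallest p in each direction over the 4 comparisons of 2 groups. The number of arrays limits the precision.

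Alternatives varied the measure of share, the number of probes chosen, the normalization, the filter, array weights, a replicate block and each array left out. Omitting the 2 arrays under 10000 detected probes, and a prior spread that follows intensity, were chosen after seeing the data. Probes carry no gene names here, so planned gene lists, cell type markers and sequences were not analysed here. No 2 arrays held identical values. Replicate numbers were not used to pair the arrays in the main tests. Of 24 correlations of same-numbered arrays' deviations, 9 exceeded 0.1. Both low arrays are replicate 4, and this check cannot exclude an effect shared by same-numbered arrays.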

Additional observations from a re-analysis of the deposited data

Results flagged for a closer look

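In groups of 4 arrays, an array was singled out when its gap to the nearest other array exceeded Dixon's 95% critical share of the group's range. This applied to 6 of 32 groups of values examined. Chance would give about 1.6 if these groups of values were independent and not selected. They were neither, since several measures share probes and arrays, and the named probes were picked by their limma p-values. No excess over chance is therefore read from the count.

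NQO1 β-lapachone replicate 3 stood apart on 3 measures of the 200 probes. They held 18.5% of its intensity, against 12.5% on the nearest array of the group, and 25.5% of its intensity above the array median, against 16.1%. On this array 169 of the 200 were among its own 200 brightest probes, against 116. It detected 13099 probes, the fewest of its group.

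IgG β-lapachone replicate 4, which detected 9223 probes, stood apart on 2 measures. The median log2 intensity of the 200 probes was 12.90 there, against 13.79 on the nearest array. The normalized log2 value of ILMN_2415722 was 11.08, against 13.39. In IgG control, replicate 2 stood apart for ILMN_3237839, with 13.54 against 13.36 on the nearest array, a gap of small absolute size.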

How the results depend on the processing

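The alternatives gave 360 results, of which only a part were counts of limma calls. In those, limma called no member except with array weights. Among all probes it called 7 and 2 with median centring (β-lapachone in NQO1 and in IgG), 1 on deposited values (in NQO1) and 1 without NQO1 β-lapachone replicate 3 (in IgG). The exact permutation tests, adjusted over 12, could hardly pass the threshold at any setting, so their p-values say nothing about stability. Differences in share changed sign for NQO1 against IgG in control medium with the array median subtracted (3.91 percentage points), with normexp-corrected intensity (1.83) and with the 100 brightest probes (0.0411), and for β-lapachone in the NQO1 precipitate with the 400 brightest (0.616). The number of members among an array's brightest changed sign for β-lapachone in IgG with the 100 brightest (-0.75) and the 400 brightest (-13.5), and in NQO1 with the 400 brightest (5.75). Without the 2 low arrays the median log2 intensity turned to 0.11 for the antibodies in control medium and 0.15 for β-lapachone in IgG. Array weights called 23, 33, 26 and 58 members, where 0 were called otherwise. The cause of each change was not tested.

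Members not overlapping between groups numbered 0 for the antibodies in control medium with median centring and also on deposited values, where there were 25 after β-lapachone and 13 for β-lapachone in NQO1. Without the 2 low arrays 14 did not overlap for β-lapachone in IgG, where fewer arrays were compared. Median centring in place of quantile normalization moved the median of all probes by over 0.1 (0.50 for the antibodies after β-lapachone, 0.58 for the drug in NQO1). Members at least 2-fold higher then numbered 35 and 21, against 7 and 0, and on deposited values 46 and 49. For the ratio they numbered 61 and 79 against 20, and members 2-fold lower with β-lapachone in IgG 23 and 26 against 10.

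Leaving out 1 array gave, for NQO1 against IgG in control medium, shares of -1.33 to 0.750 points, -23.6 to 3.58 members among the brightest and medians of -0.58 to 0.11. The lowest of each came without NQO1 control replicate 3, and the highest without IgG control replicate 2 for the first pair and NQO1 control replicate 4 for the median. After β-lapachone these were -3.51 to -1.30, -25.25 to -1.0 and 0.27 to 0.62. For β-lapachone in NQO1 they were -1.87 to 0.512, -14.25 to 14.3 and 0.31 to 1.00 (share and number lowest without NQO1 β-lapachone replicate 3, highest without NQO1 control replicate 3), and in IgG 0.485 to 2.40, -8.25 to 14.6 and -0.20 to 0.15. The limma fits called 0 members each time. With the replicate number as a block, limma called 0 members in all 6 comparisons, and the share differences, such as -2.01 for NQO1 against IgG after β-lapachone, were the same. Same-numbered arrays correlated in their deviations between -0.855 and 0.883.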

Other observations

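Some of the brightest probes lay outside the 200. Over the 16 arrays, 468 probes were among the 200 brightest of at least 1 array, and 198 of these were members. Of the others, 12 were not detected on all 16 arrays, 9 of them undetected only on NQO1 control replicate 4 or IgG β-lapachone replicate 4. The brightest probe of the array was a member on 14 of 16 arrays, the exceptions being NQO1 β-lapachone replicates 1 and 4.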
